A study of Mus musculus with 6 samples.

Results

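The miR-320 family was represented on the array by 4 kinds of capture probe, with 16 spots per array, of 1984 kinds and 8720 spots in all. Members were chosen by probe name, as every probe whose name holds human, mouse or rat miR-320 with or without an isoform letter. That rule uses no measured value, but the family itself was picked with earlier results of these data known. One probe, 27533, carries the mouse name mmu-miR-320 together with hsa-miR-320a and rno-miR-320, and is called the mouse-named probe here. The other 3 carry human names only: hsa-miR-320b (probe 46324), hsa-miR-320c (46228) and hsa-miR-320d (46870). All 4 met retinal RNA of B10.RIII mice aged 8 weeks, from 3 independent harvests of mice developing experimental autoimmune uveoretinitis (EAU), taken on day 14, and 3 of naive mice. EAU is a T cell-driven inflammation of the retina induced in susceptible strains as a model of human uveitis. How many mice each harvest pooled, and how the disease was induced, is not given in the sources used here. From each sample 800 ng of total RNA received the dye Hy3, and each array also carried a Hy5-labelled reference that blends equal amounts of the samples. The unit below is log2(Hy3/Hy5) unless another is named, so a positive difference means a higher ratio in EAU.

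MicroRNAs (miRNAs) are short RNAs that pair with messenger RNAs mainly through the seed, the bases next to their 5′ end. Most are cut from a longer hairpin transcript by the nuclease Drosha and then by Dicer. In the mouse, miR-320 is known as an exception: RNA polymerase II makes its hairpin directly, with a cap at the 5′ end, and Dicer processes it without Drosha. The human isoforms miR-320a to miR-320d come from separate genes, share the seed and most of the mature sequence, and differ towards the 3′ end. The mouse reference table (GRCm38.p6) holds 1 gene of this family, Mir320, at chr14:70443510-70443591, a locus of 82 bases that lies 39 bases from Polr3d, which encodes a subunit of RNA polymerase III. Human-named probes on mouse RNA therefore ask whether the 4 probes report one shared signal.

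The arrays were dim. The blank level, set per array as the median plus 3 median absolute deviations of its blank and negative-control spots, lay between 49.96 and 104 in Hy3 for the EAU arrays and between 54.2 and 85.3 for the naive arrays, after subtraction of the local background. By this level 213 to 277 of 597 mouse probes were above the blanks in Hy3 on EAU arrays and 206 to 256 on naive arrays. The naive arrays were all scanned on 1 day and the EAU arrays on another, and a difference between scan days cannot be told apart from one between groups. Markers of cell types also differed between the groups, in sums of Hy3 signal that are not normalized between arrays. The sum of 5 leukocyte miRNAs ranged from 535 to 1255 in EAU and from 308 to 366 in naive. On the log2 ratio 1 of the 5, miR-142-3p, passed the test (0.56, adjusted p = 0.0248, limma). It was above the blanks on all EAU arrays and on 0 naive arrays. In the same limma fit miR-142-5p differed by 0.47 (adjusted p = 0.0723) and miR-223 by 0.13 (adjusted p = 0.76). There miR-155 differed by 0.09 (adjusted p = 0.154) and miR-150 by -0.10 (adjusted p = 0.311). Summed Hy3 signals of 2 neuronal miRNAs (5922 to 17222 in EAU, 43921 to 49797 in naive), 3 photoreceptor miRNAs (418 to 1091 in EAU, 2726 to 3064 in naive) and 2 pigment epithelium miRNAs (242 to 1223.7 in EAU, 1256 to 1604 in naive) were lower in EAU without overlap. In limma on the log2 ratio, 1 of the 2 neuronal, 0 of the 3 photoreceptor and 2 of the 2 pigment epithelium miRNAs passed, as lower in EAU. With Hy3 normalized alone, miR-96, miR-183, miR-182, miR-124, miR-204 and miR-142-5p each had an adjusted p under 0.05 in limma. Of the markers that passed on the log2 ratio, 3 did not pass there. These were miR-142-3p (limma's adjusted p = 0.0749), the neuronal miR-9 (0.0780) and the pigment epithelium miR-211 (0.0518). MiR-124 makes up most of the neuronal sum, with means of 13199 in EAU and 47384 in naive. Its log2 ratios overlapped between the groups (adjusted p = 0.52, limma). Sums of 2 endothelial miRNAs (103 to 298 in EAU, 112 to 198 in naive) and of 3 erythroid ones (140 to 348 in EAU, 131 to 146 in naive) overlapped. The part of these markers in the miR-320 values was not tested, and in such bulk RNA fewer cells of a type and less RNA per cell cannot be told apart.

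Of the 4 probes, 1 passed the threshold in limma (adjusted p under 0.05): the miR-320d probe, which was higher in EAU. Over all miRNA probes on the array, 111 of 1724 tested passed the same threshold (adjusted p under 0.05, limma with Benjamini-Hochberg adjustment over all of them), which is 6.44%, and 38 of these, or 2.2%, were higher in EAU. The median difference over all of them was -0.02.

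The miR-320d probe had log2 ratios of 0.32, 0.41 and 0.37 on EAU arrays, against -0.13, -0.12 and -0.09 on naive arrays. Every EAU array lay above every naive array, and the gap between the groups exceeded the spread within either. Groups averaged 0.37 ± 0.05 in EAU and -0.11 ± 0.02 in naive (SD, n = 3 each), a difference of 0.48 (SE 0.03, 95% interval 0.41 to 0.55) or 1.39-fold, with limma's adjusted p = 0.00653. By p-value it stood at rank 2 of 1724, and by size of the rise at rank 22. Without EAU replicate 3 the difference was 0.48 and limma's adjusted p = 0.0644, in a fit where 0 probes of 1717 passed after adjustment and 431 had an unadjusted p under 0.05.

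The mouse-named probe, which carries the name of the only miR-320 gene in the mouse table, pointed the other way and did not pass. Its ratios were 0.03, -0.18 and -0.06 on EAU arrays, against 0.11, 0.15 and 0.20 on naive arrays. All EAU arrays lay below all naive arrays, by a margin smaller than the spread among the EAU arrays; over the whole array the groups did not overlap at 735 of 1724 probes, or 42.6%. The means were -0.07 ± 0.10 in EAU and 0.15 ± 0.04 in naive (SD, n = 3 each), and the difference was -0.23 (SE 0.06, 95% interval -0.37 to -0.08, limma's adjusted p = 0.0761). Without EAU replicate 1 it was -0.27 and passed the threshold (limma's adjusted p = 0.0436).

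The miR-320c probe read 0.24, 0.45 and 0.24 on EAU arrays, against 0.11, 0.18 and 0.17 on naive arrays. Its groups did not overlap either, with EAU replicate 2 far above the other EAU arrays. The difference was 0.16 (SE 0.06, 95% interval -0.002 to 0.32, limma's adjusted p = 0.163). The miR-320b probe read 0.08, 0.21 and 0.08 on EAU arrays, against 0.02, 0.09 and 0.11 on naive arrays, and here the groups overlapped. It differed by 0.05 (SE 0.05, 95% interval -0.07 to 0.16, limma's adjusted p = 0.519), so that in this processing a change beyond 0.16 in either direction lies outside its interval. Over the 15 other ways of processing its difference ranged from 0.03 to 0.31. The 3 human-named probes thus had differences of one sign and of unequal size.

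**Figure D1:**
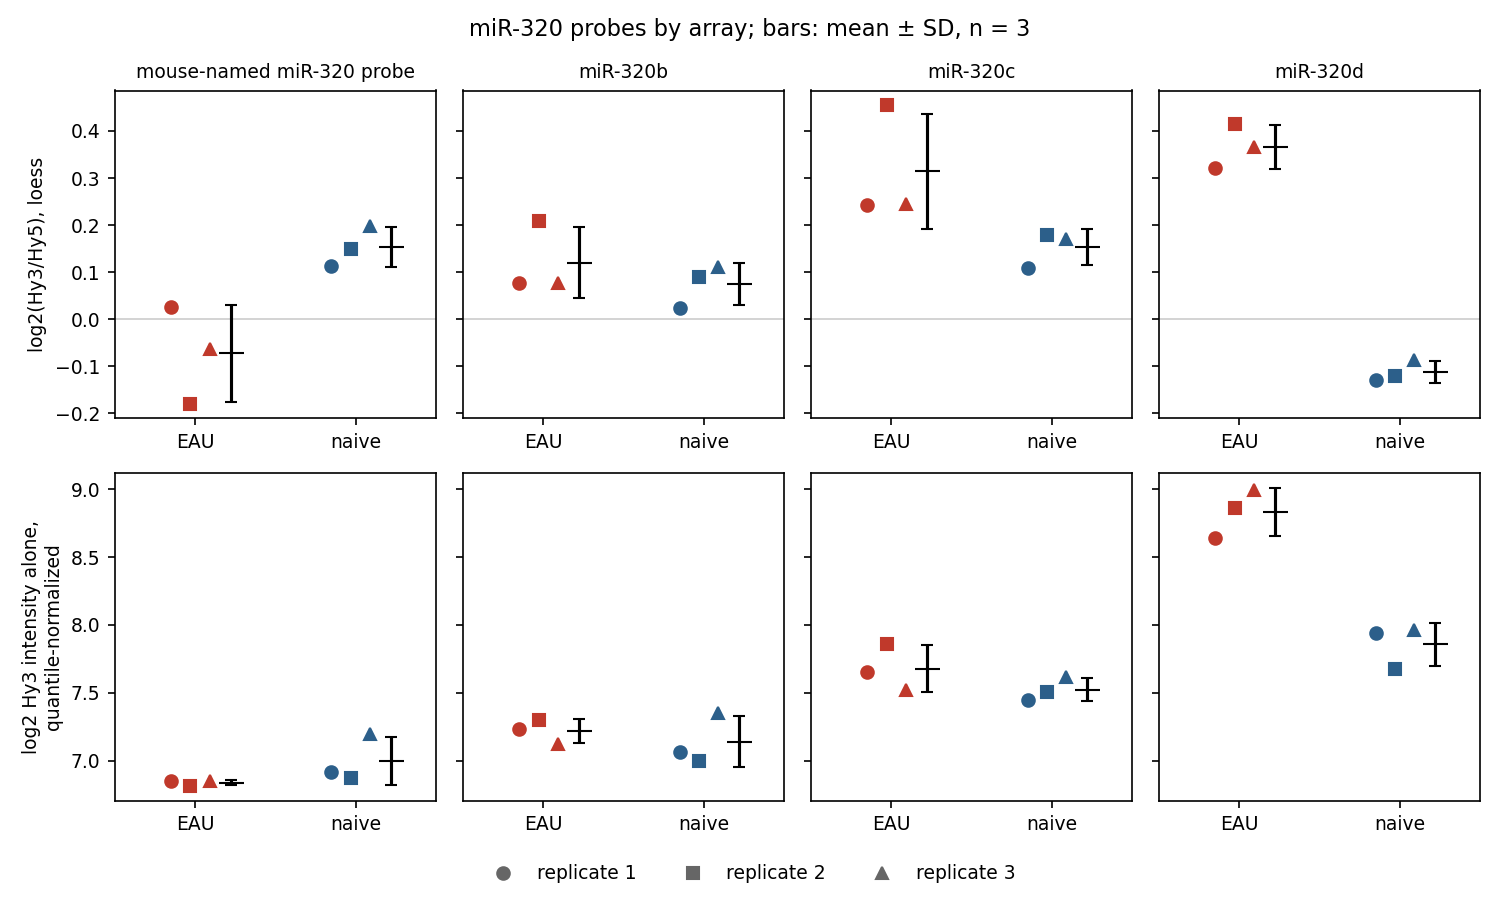
Log2(Hy3/Hy5) after loess (upper row) and the quantile-normalized log2 Hy3 intensity alone (lower row) of the 4 miR-320 probes, with EAU left of naive; each point is 1 array and the bar gives mean ± SD (n = 3). In the upper row the miR-320d points lie between 0.32 and 0.41 in EAU and between -0.13 and -0.09 in naive, and the miR-320b groups overlap.

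Signal in the sample channel differed in reliability between the probes. After subtraction of the local background the miR-320d spots averaged 361, 896 and 248 in Hy3 on EAU arrays, against 205, 179.9 and 165 on naive arrays, and were above the blanks on all 6 arrays. The mouse-named probe averaged 65.9, 122 and 52.5 on EAU arrays, against 74.9, 95.9 and 77.8 on naive arrays. Those groups overlapped, and the probe was above the blanks on 2 of 3 EAU arrays and 2 of 3 naive arrays. MiR-320c was above the blanks on all 6 arrays, with 149, 370.1 and 92.3 on EAU arrays and 127, 162 and 116 on naive arrays. MiR-320b was above them on 3 EAU arrays and 2 naive arrays, with 101, 197 and 64.9 on EAU arrays and 88.0, 103 and 90.0 on naive arrays. EAU replicate 2 was the brightest array for every miR-320 probe and also had the highest blank level, 104.

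The reference channel was fainter still. Hy5 signals of the mouse-named probe were 6.21, 18.7 and 8.11 on EAU arrays, against 7.86, 14.4 and 6.09 on naive arrays, and passed the Hy5 blank level on 1 array of each group. Those of miR-320d were 24.6, 50.3 and 11.7 on EAU arrays, against 39.001, 49.4 and 28.5 on naive arrays, above the blanks on all 6. MiR-320b passed the Hy5 blank level on 2 EAU arrays and 3 naive arrays, and miR-320c on 1 EAU array and 3 naive arrays. No spot of the 4 probes was saturated or marked as an outlier.

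With each channel normalized alone, the miR-320d probe rose in the sample channel. In Hy3 alone its log2 intensity was 8.64, 8.86 and 8.99 on EAU arrays, against 7.94, 7.68 and 7.96 on naive arrays. That is a difference of 0.97 (SE 0.12, limma's adjusted p = 0.0277), in a test that called 59 of 1724 probes, or 3.42%. The mouse-named probe differed by -0.16 (adjusted p = 0.528), miR-320b by 0.08 (adjusted p = 0.948) and miR-320c by 0.16 (adjusted p = 0.599) in the same limma fit. In Hy5 alone, where all arrays hold the same blend, the differences were 0.07 for the mouse-named probe, -0.06 for miR-320b, -0.15 for miR-320c and -0.06 for miR-320d. Limma's adjusted p there was 0.844 for the first 3 and 0.884 for miR-320d; it called 0 of 1724 probes, of which 81 had an unadjusted p under 0.05.

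The authors' deposited table of linear ratios placed the members in another order. In the authors' deposited table miR-320c had ratios of 1.79, 2.41 and 1.98 on EAU arrays, against 1.06, 1.34 and 1.23 on naive arrays, with no overlap. On the log2 scale miR-320c differed there by 0.76 (limma's adjusted p = 0.0268), where 126 of 1700 probes, or 7.41%, passed. MiR-320d had 1.58, 1.17 and 1.41 on EAU arrays, against 1.01, 1.13 and 1.07 on naive arrays, also with no overlap. Its log2 difference in the authors' deposited table was 0.37 and did not pass (limma's adjusted p = 0.221). The share of probes without overlap was not counted for that table. The mouse-named probe differed by -0.50 (adjusted p = 0.225) and miR-320b by 0.19 (adjusted p = 0.57) in limma on the authors' deposited table. The table runs in the direction of Hy3 over Hy5 and is not logged, while its centring is unknown; column medians were 0.809, 0.886 and 0.807 for the EAU arrays and 0.879, 0.851 and 0.769 for the naive arrays.

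Each probe was printed as 4 spots down 1 column of a slide of 156 rows and 60 columns, and the difference at miR-320d varied with the spot. At row 22 its mean ratio was 0.53 in EAU and 0.42 in naive, a difference of 0.11 with overlapping groups. At rows 55, 88 and 121 the differences were 0.58, 0.59 and 0.64, each without overlap. The naive mean was -0.10, -0.35 and -0.42 at those rows, and the EAU mean 0.47, 0.24 and 0.22. At row 22 the Hy3 signals themselves did not overlap: they were 339, 896 and 259.5 on EAU arrays, against 181, 178 and 145 on naive arrays. The Hy5 signals at that row were 10.7, 37.8 and 15.0 on EAU arrays, against 17.4, 17.2 and 9.08 on naive arrays, and 36.5, 63.6 and 12.3 on EAU arrays, against 59.1, 74.2 and 49.0 on naive arrays, at row 121.

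Such a difference between the first and the fourth spot was general in Hy5. Over the 247 miRNA probes with 4 spots that were above the blanks in both channels on all 6 arrays, the median log2 ratio of the fourth over the first spot by row was 1.41, 1.27 and 1.02 in Hy5 on EAU arrays, and 1.16, 1.57 and 1.79 on naive arrays. In Hy3 the same medians lay between -0.09 and 0.31. MiR-320d had Hy5 values of 1.77, 0.75 and -0.29 on EAU arrays and 1.76, 2.11 and 2.43 on naive arrays. The part of spot order in the group difference was tested only by leaving spots out. Without the first spot of each probe the miR-320d difference was 0.60 (limma's adjusted p = 0.0158). With only the spots in rows 1 to 39, which hold 1 spot of each human-named probe, it was 0.11 (adjusted p = 0.643, limma).

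At the mouse-named probe the first spot stood apart as well. Its 4 spots lie close together, at rows 6, 15, 24 and 33, and the differences there were -0.46, -0.15, -0.12 and -0.16. At row 6 the local background in Hy3 was 88 and 90 on EAU replicates 2 and 3 and 191 on naive replicate 2, against 22 to 24 for the other arrays at that spot. On EAU replicate 2 and naive replicate 2 this spot was among the 2 of 4 above the blanks in each channel. Those arrays counted as above the blanks for this probe only with it included. Leaving out all spots whose local background exceeded 1.5 times the median of the array gave ratios of 0.03, -0.08 and 0.04 on EAU arrays, against 0.11, 0.11 and 0.20 on naive arrays. The groups still did not overlap, and the difference was then -0.14 (limma's adjusted p = 0.134), against -0.23 with all spots. The same exclusion took the row 22 spot of miR-320d from EAU replicates 2 and 3 and left a difference of 0.46 (limma's adjusted p = 0.00617).

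**Figure D2:**
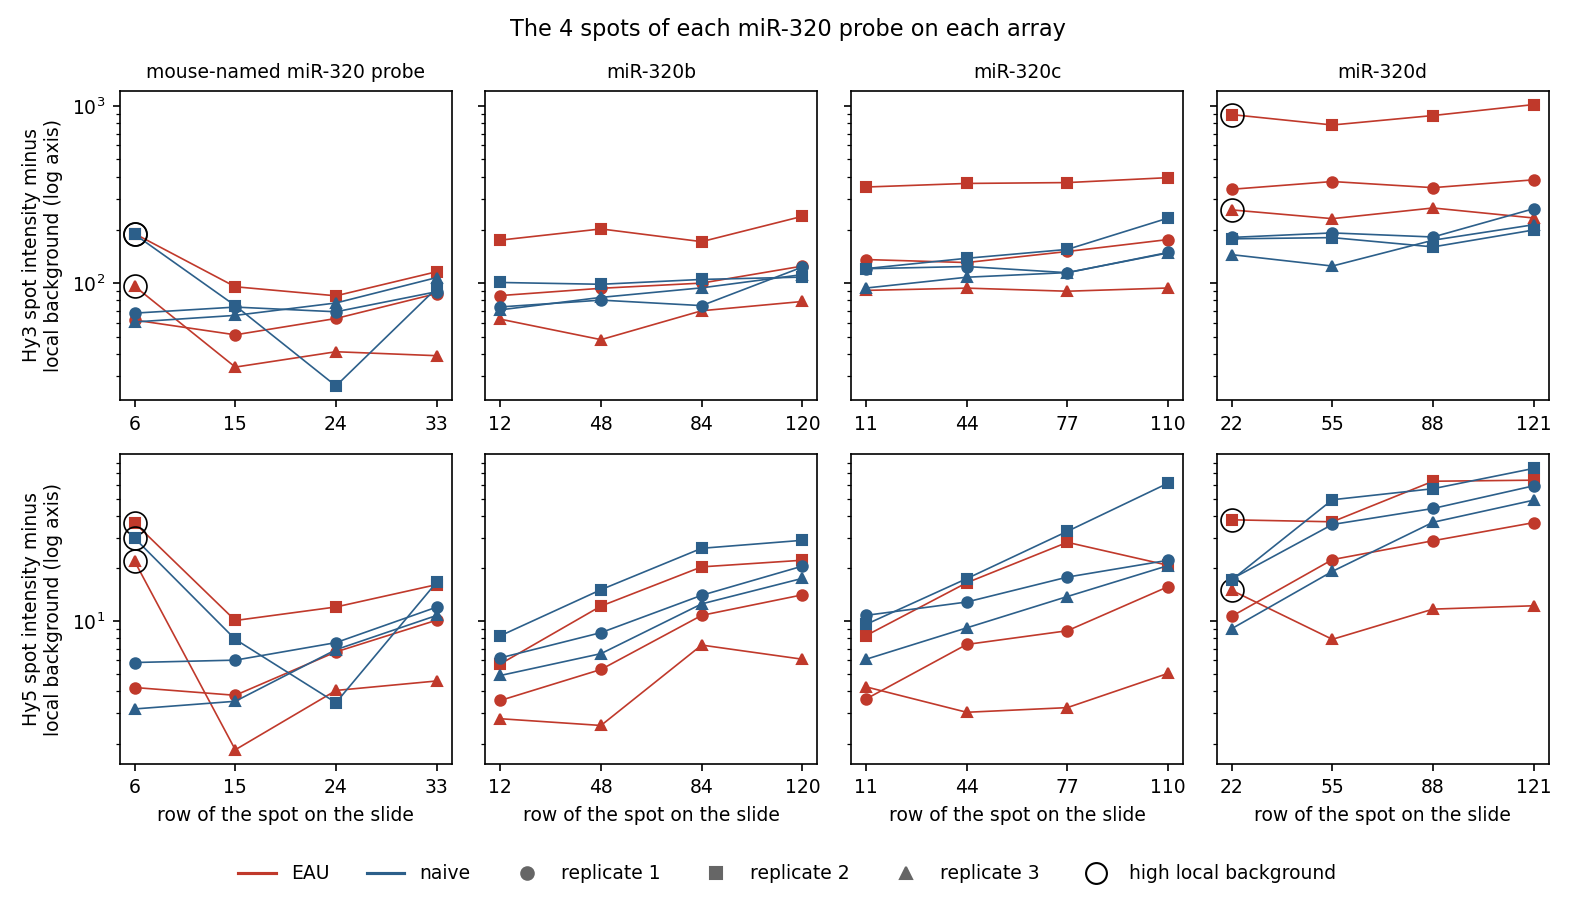
Spot intensity minus local background on a log axis for the 4 spots of each miR-320 probe, Hy3 above and Hy5 below, against the row of the spot; lines join the spots of 1 array, in red for EAU and blue for naive, and open circles mark a local background over 1.5 times the median of the array. Hy5 rises with spot order at the human-named probes on most arrays, and at row 6 the circled spots of the mouse-named probe lie above the other arrays.

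The human-named probes were then set against the mouse-named probe on the same array. The ratio subtracted is that of a probe above the blanks on 2 of 3 arrays of each group in Hy3 and on 1 of 3 in Hy5, so these differences rest in part on signal at the level of the blanks. MiR-320d minus the mouse-named probe was 0.29, 0.59 and 0.43 on EAU arrays, against -0.24, -0.27 and -0.28 on naive arrays. This difference of log2 ratios was positive on every EAU array and negative on every naive array, and the groups were 0.70 apart (95% interval 0.46 to 0.95). For miR-320c it was 0.22, 0.63 and 0.31 on EAU arrays, against -0.00, 0.03 and -0.03 on naive arrays, which are 0.39 apart (95% interval 0.03 to 0.74). For miR-320b it was 0.05, 0.39 and 0.14 on EAU arrays, against -0.09, -0.06 and -0.09 on naive arrays. The distance of 0.27 has an interval that reaches 0 (95% interval -0.01 to 0.55). These intervals pool the variance of both groups, although the SDs were unequal. The SD was 0.15 in EAU and 0.02 in naive for miR-320d, 0.22 and 0.03 for miR-320c, and 0.17 and 0.02 for miR-320b. Intervals without pooling were not computed. None of the 3 pairs overlapped between the groups, and the share of such pairs over the array was not computed. For single probes the groups did not overlap at 735 of 1724, or 42.6%. All 3 pairs subtract the same mouse-named probe, whose own difference of -0.23 enters every distance. The miR-320b probe alone differed by 0.05. The exact permutation test, two-sided, gave p = 0.1 for each, which is the smallest that 3 arrays against 3 allow, and 0.1 after adjustment over the 3 pairs. This test therefore cannot reach 0.05 here. In Hy3 alone the distances were 0.24 for miR-320b, 0.31 for miR-320c and 1.13 for miR-320d. Without spots of high local background they were 0.19, 0.31 and 0.61. With only the spots in rows 1 to 39, where all spots of the mouse-named probe lie, they were 0.25 for miR-320b (exact permutation p = 0.3), 0.35 for miR-320c (exact p = 0.2) and 0.34 for miR-320d (exact p = 0.2). Over the 15 other ways of processing the distance ranged from 0.19 to 0.93 for miR-320b, from 0.31 to 1.39 for miR-320c and from 0.34 to 1.56 for miR-320d. Some of these ways, named below as leaving the estimate the same at all 4 probes, leave the distances unchanged. Median centring and no normalization within arrays gave the same distances as each other.

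**Figure D3:**
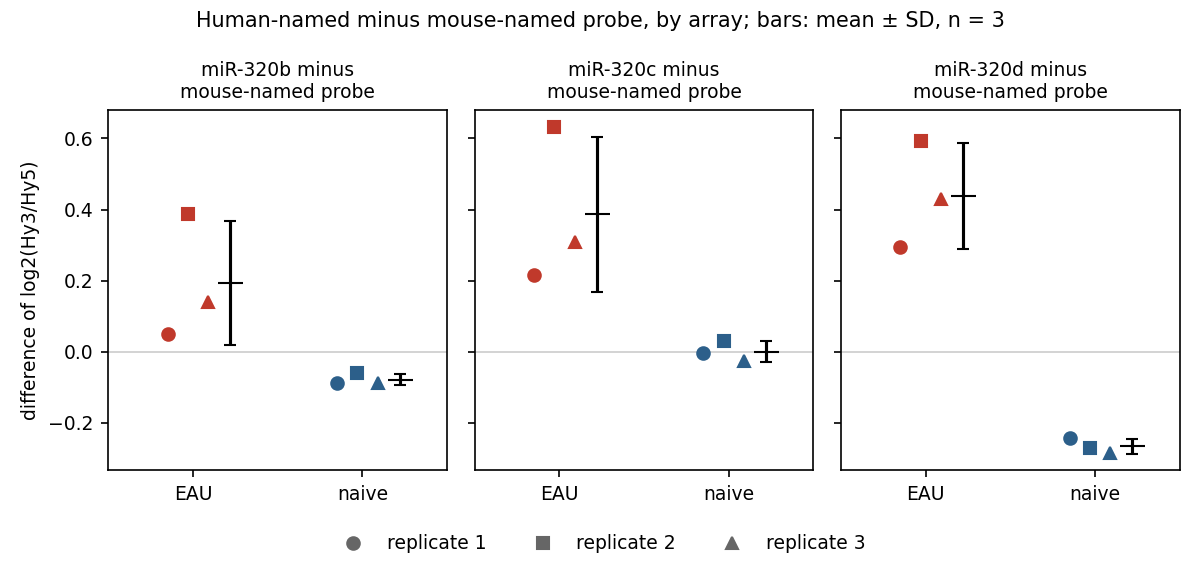
Log2(Hy3/Hy5) of each human-named probe minus that of the mouse-named probe on the same array, with EAU left of naive; points are arrays and bars give mean ± SD (n = 3). For miR-320d the points lie between 0.29 and 0.59 in EAU and between -0.28 and -0.24 in naive.

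As a description over 6 arrays that share the reference and fall into the 2 groups, deviations from the group means correlated at 0.96 between miR-320b and miR-320c, 0.86 between miR-320b and miR-320d and 0.83 between miR-320c and miR-320d. Against the mouse-named probe the same measure was -0.53 for miR-320b, -0.71 for miR-320c and -0.66 for miR-320d. EAU replicate 2 had the highest ratio of each human-named probe and the lowest of the mouse-named one. The correlations include the spots of high local background and were not repeated without them. In Hy3 alone, over the 6 arrays without removal of the group means, the mouse-named probe correlated at 0.44 with miR-320b, -0.17 with miR-320c and -0.50 with miR-320d, and miR-320b with miR-320d at 0.37. No test was run on these relations.

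Other probes give a measure of what human names return on mouse RNA. Among human-named probes that share a number with a mouse-named probe, miR-320 left out, 39 of 193 (20.2%) were above the blanks in Hy3 on all 6 arrays. Among those whose number no mouse-named probe carries, the share was 77 of 353 (21.8%), and among the mouse-named probes 166 of 597 (27.8%). Of the miR-320 probes, miR-320c and miR-320d met that criterion. In 81 other pairs of a human-only and a mouse-named probe of the same number, from 53 human-only probes, the EAU-minus-naive values of the pair differed by a median size of 0.07 and at most 1.60. A distance larger than that of miR-320d occurred in 5 of the 81 pairs, one larger than that of miR-320c in 7, and one larger than that of miR-320b in 12. Several of these pairs share a probe, so they are not independent. The 5 pairs with a larger distance than miR-320d are those of hsa-miR-302f and hsa-miR-220b. Some pairs join different members of a family, such as hsa-miR-302a with the probe of mmu-miR-302b. Of the 193 human-named probes above, 108 were above the blanks on no array. The offset draws log2 ratios of dim probes towards 0, and its part in the median size was not tested.

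By Pearson correlation of the log2 ratios over the 6 arrays, among 1712 probes with a value on every array, hsa-let-7a came first (0.99), followed by hsa-miRPlus-F1001 (0.98), miR-30a (0.98), mmu-miR-742 (0.97) and hsa-miR-636 (0.97). All 5 were above the blanks in Hy3 on all 6 arrays and had lower ratios in EAU. MiR-30a, a member of a widely expressed family, fell by 0.75 (SE 0.14, limma's adjusted p = 0.0428), and the human-named let-7a probe, of the let-7 family of differentiation-linked miRNAs, differed by -0.43 (SE 0.12, adjusted p = 0.0848). The human-named miR-320 probes ranked 1307 (miR-320b), 1592 (miR-320c) and 1623 (miR-320d) in the same order. The list and the ranks changed with the measure. With median centring in place of loess, miR-365 came first (0.98), mmu-miR-742 and miR-30a stayed among the first 5 while hsa-let-7a did not, and miR-320b ranked 467 (0.18), miR-320c 1077 (-0.04) and miR-320d 1535 (-0.34). By deviations from the group means, hsa-miRPlus-F1001 was the only one of the 5 that remained among the first 5, and the human-named miR-320 probes ranked 1238 (miR-320b), 1444 (miR-320c) and 1396 (miR-320d). MiR-365 was named after its value was seen. These likenesses rest on 6 arrays in 2 groups that share the Hy5 blend, and are a description.

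Other miRNAs described as made without Drosha had 5 probes, of which 0 passed the test in either direction with limma. An unadjusted p under 0.05 was found at 3 of these 5, against 539 of 1724 over all probes tested. Their median difference was -0.15, against -0.02 over all probes tested. MiR-484, whose hairpin is capped like that of miR-320, averaged -0.23 ± 0.07 in EAU and -0.09 ± 0.08 in naive (SD, n = 3 each), a difference of -0.15 (SE 0.05, limma's adjusted p = 0.145). It was above the blanks in Hy3 on 0 EAU arrays and 1 naive array. MiR-877, excised from an intron, differed by 0.14 (adjusted p = 0.145) and was above the blanks on all 6 arrays, and its partner strand miR-877* differed by -0.28 (adjusted p = 0.104). MiR-702 differed by -0.23 (adjusted p = 0.197) and miR-1224 by 0.00 (adjusted p = 0.966) in the same limma fit, and neither was above the blanks on any array.

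The sign of the difference at each miR-320 probe was the same in all 15 other ways of processing tried on the 6 arrays, while its size and its call were not. In some of these the estimate stays the same at all 4 probes, so its sign could not differ. They kept outlier spots, tested only mouse and miR-320 probes, tested only probes above the blanks on at least 3 arrays, or added a replicate block. Leaving out spots of high local background also left miR-320b and miR-320c unchanged. Using only rows 1 to 39 left the mouse-named probe unchanged. For miR-320d the difference ranged from 0.11 to 1.28 and passed in 9 of the 15. It was largest without normalization within arrays (1.28, limma's adjusted p = 0.0523) and with median centring (1.21, adjusted p = 0.105), and in neither did it pass. For the mouse-named probe the range was -0.66 to -0.07 with 0 passes, where limma's adjusted p lay between 0.0591 and 1.00. For miR-320c the range was 0.13 to 0.76 with 2 passes, and for miR-320b 0.03 to 0.31 with 0 passes (limma's adjusted p from 0.302 to 0.948).

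**Figure D4:**
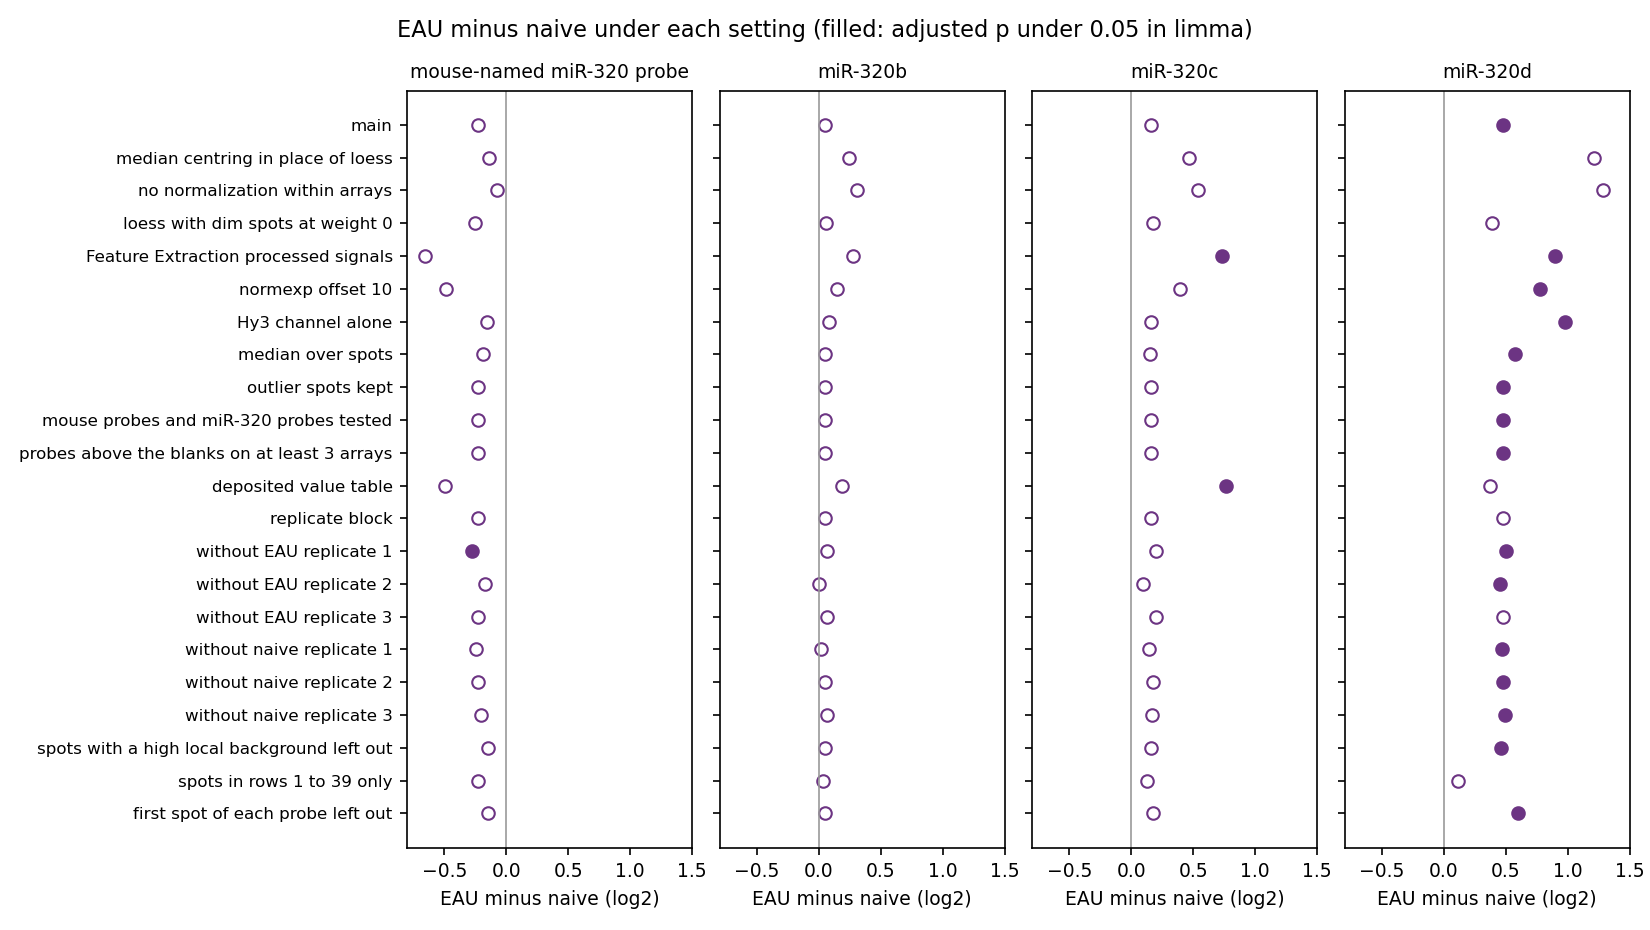
EAU-minus-naive difference of each miR-320 probe (log2) under each way of processing, from the reported one at the top; filled points have an adjusted p under 0.05 in limma. All points lie left of 0 for the mouse-named probe and right of 0 for the human-named probes, and only miR-320d is filled in more than 2 of the settings.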

How the data were processed

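The authors deposited 1 scanner file per array with the intensity of each spot in both channels, which per the file headers came from Agilent Feature Extraction 9.1.3.1. They also deposited a table with a linear ratio per probe. Its log2 values correlated with those of the processed signals at a median of 0.939 over 408 probes. Of its 1972 rows, 36 lay above 32 on every array and were left out.

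Mean signals were corrected by normexp (offset 50) and normalized by loess within arrays, control spots at weight 0, in limma 3.58.1 (R 4.3.3). The offset draws log2 ratios of dim probes towards 0. Spots marked as outliers were dropped and the remaining values of a probe averaged; above the blanks means 50% or more of the spots. Probes naming a miRNA of any species (1730 kinds, 6 with too few values) were tested together by lmFit and eBayes, two-sided. The well-above-background flag was set for every member spot. Arrays share 1 dye orientation. Per-array differences between probes were compared by an exact permutation test. The p-values cover only the variation among arrays, each from its own harvest, so harvest and array variation cannot be told apart. The limma fit was tested on simulated probe values, and the permutation test on a made-up set of values. Background correction, loess and the blank level were not tested in this way.

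Named are the miR-320 probes, the 5 probes most like the mouse-named one, the miRNAs made without Drosha, and markers. The members and lists were chosen with earlier results of these data known. Mature miR-320 sequences and miRNAs sharing its seed were not analysed here.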

Additional observations from a re-analysis of the deposited data

How the results depend on the processing

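Over all miRNA probes, 111 passed (38 higher, 73 lower). The count was 3 with median centring (1 higher, 2 lower), 28 without normalization (23 higher, 5 lower), 39 with dim spots at weight 0 in loess (16 higher, 23 lower; median of all probes -0.10), 179 with the processed signals (100 higher, 79 lower), 59 in Hy3 alone (33 higher, 26 lower) and 126 in the deposited table (74 higher, 52 lower). Of the alternatives added after seeing the data, leaving out spots of high local background gave 58 (26 higher, 32 lower) and rows 1 to 39 gave 59 (8 higher, 51 lower); leaving out first spots gave 112 (55 higher, 57 lower).

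MiR-320d did not pass with median centring (1.21), without normalization (1.28), with dim spots at weight 0 (0.39), in the deposited table (0.37) and in rows 1 to 39 (0.11), and miR-320c passed with the processed signals (0.73) and in the deposited table (0.76). Of the miR-320 probes 1 passed in the reported processing and in the deposited table, 2 with the processed signals, and 0 with median centring, without normalization, with dim spots at weight 0 and in rows 1 to 39. The cause was not tested.

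Without 1 array each, the differences ranged from 0.46 to 0.50 for miR-320d (limma's adjusted p 0.0167 to 0.0644), from -0.27 to -0.17 for the mouse-named probe (0.0436 to 0.182), from 0.09 to 0.20 for miR-320c and from 0.00 to 0.07 for miR-320b. Human-named minus mouse-named distances ranged from 0.63 to 0.78 for miR-320d, from 0.26 to 0.47 for miR-320c and from 0.17 to 0.34 for miR-320b. Between 0 and 141 of all probes and 0 to 2 of the miR-320 probes passed. All probes past the threshold numbered 141, 59 and 0 without EAU replicates 1, 2 and 3, and 6, 19 and 11 without naive replicates 1, 2 and 3.

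The replicate numbers are not known to pair the samples. Deviations of same-numbered arrays correlated at 0.06, -0.24 and 0.13, and not every array correlated best with its own number. With 3 arrays per group these values cannot decide whether the samples were paired. With a replicate block, limma called 0 probes (426 with an unadjusted p under 0.05) and 0 miR-320 probes, and miR-320d had a difference of 0.48 with an adjusted p of 0.112.

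Signal limits the mouse-named probe most: it passed the Hy5 blank level on 1 array of each group. Those arrays, replicate 2 of each group, passed only with the row 6 spot of high local background.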
